A study of Mus musculus with 16 samples.

Results

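Zinc and iron handling genes were examined in cultured mouse islets, the clusters of hormone-secreting cells of the pancreas. The group was formed from gene symbols. It took the protein-coding genes whose symbol starts with Slc30a or Slc39a, the metallothioneins Mt1 and Mt2, and a set of named genes of iron uptake, storage, export and sensing. Of the 40 genes with such a symbol, 34 had at least 10 counts in at least 4 libraries and are the members described here, out of 52636 genes in the table and 18587 genes tested. The 6 others were Slc30a2, Slc30a3, Slc30a10, Slc39a5, Slc39a12 and Heph. Islets of 12-week-old male mice were cultured for 10 days in medium with human serum and without further additions (control), with the pro-inflammatory cytokine IL-1β at 50 pg/mL, with sodium butyrate, a short chain fatty acid of gut bacteria, at 0.2 mM, or with both. RNA was sequenced from 4 independent experiments per condition, 16 libraries in all. A library held 500 islets pooled from several mice, so the unit of replication was the experiment. The labels name the strain C57BL/6JRj, whereas the paper names it C57BL/6NRj, and no genotype is given for any group.

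Beta cells store insulin with zinc in their secretory granules. Slc30a (ZnT) proteins move zinc out of the cytosol, into granules, other organelles or the outside, and Slc39a (ZIP) proteins move it into the cytosol, while metallothioneins bind it. Cells take up iron as transferrin-bound iron through the transferrin receptor, reduce it with Steap proteins, move it into the cytosol with Slc11a2, store it in ferritin and release it through ferroportin (Slc40a1). The iron regulatory proteins, Aco1 and Ireb2, bind a stem and loop in mRNA, the iron responsive element, which limits ferritin and ferroportin translation when iron is low and stabilizes the transferrin receptor mRNA.

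The iron responsive elements are printed because they are the sites that the iron regulatory proteins read. A search of GENCODE M21 transcripts (GRCm38) for a C, 5 bases, CAGTG, 1 base and 5 bases pairing with the first 5 (G-U allowed, at least 4 of 5 pairs) found matches in the untranslated regions of 5 of 34 members (14.7%), against 923 of 14733 tested protein-coding genes (6.27%). All stems had 5 of 5 pairs except that of Slc11a2, which had 4. Capitals mark CAGTG of the loop, and the 1 unpaired base after it is in lower case.
Fth1, 5′ UTR, chr19:9982738-9982754, plus strand: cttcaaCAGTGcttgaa
Ftl1, 5′ UTR, chr7:45459785-45459801, minus strand: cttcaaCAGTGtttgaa
Slc40a1, 5′ UTR, chr1:45925471-45925487, minus strand: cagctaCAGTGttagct
Slc11a2, 3′ UTR, chr15:100395159-100395175, minus strand: cagagcCAGTGtgtttc
Tfrc, 3′ UTR, chr16:32631225-32631241, plus strand: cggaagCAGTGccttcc
Tfrc, 3′ UTR, chr16:32631604-32631620, plus strand: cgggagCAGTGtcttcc
Tfrc, 3′ UTR, chr16:32631669-32631685, plus strand: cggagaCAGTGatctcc
Tfrc, 3′ UTR, chr16:32631716-32631732, plus strand: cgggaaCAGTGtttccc
The 5′ matches thus fell in both ferritin genes and the iron exporter, and the 3′ matches in the importer Slc11a2 and, 4 times, in the transferrin receptor. Slc30a6 had a match in its coding part only.

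The upstream sequences of Mt1, Mt2 and Slc30a1 are printed because these are textbook targets of the zinc-sensing factor Mtf1, which binds metal response elements. The element was searched as TGCACNC or TGCGCNC on both strands of the 250 bases before the start in the RefSeq promoters (GRCm38.p6). Of the 27 members with an entry, 12 had a match (44.4%), against 4148 of 12545 tested genes (33.1%). The members with no entry were Slc30a8, Slc39a4, Slc39a6, Slc39a14, Trf, Slc11a2 and Slc40a1. Capitals mark the matches.
Mt2, chr8:94172368-94172617, plus strand: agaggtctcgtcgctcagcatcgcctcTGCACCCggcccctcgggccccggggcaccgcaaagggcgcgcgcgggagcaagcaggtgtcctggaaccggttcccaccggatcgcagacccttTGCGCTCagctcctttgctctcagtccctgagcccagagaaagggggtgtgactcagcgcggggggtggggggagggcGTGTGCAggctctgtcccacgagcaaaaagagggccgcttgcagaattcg
Mt1, chr8:94178839-94179088, plus strand: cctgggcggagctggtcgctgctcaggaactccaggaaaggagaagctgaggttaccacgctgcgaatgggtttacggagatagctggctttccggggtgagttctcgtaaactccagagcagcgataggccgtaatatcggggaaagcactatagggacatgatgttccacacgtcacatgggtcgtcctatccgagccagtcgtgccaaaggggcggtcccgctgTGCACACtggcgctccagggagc
Slc30a1, chr1:191906531-191906780, plus strand: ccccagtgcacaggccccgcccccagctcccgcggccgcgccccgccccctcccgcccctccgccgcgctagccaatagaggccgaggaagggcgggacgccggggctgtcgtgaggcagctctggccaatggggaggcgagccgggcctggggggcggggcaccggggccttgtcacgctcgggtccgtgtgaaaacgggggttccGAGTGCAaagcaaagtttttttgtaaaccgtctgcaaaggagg
Mt2 had 3 matches, at bases −223, −128 and −50 from the start, and was the 1 member (3.70%) with 3 or more, against 2.34% of the tested genes. Mt1 had 1 match at base −23, and Slc30a1 had 1 at base −43 on the other strand. Bases after the start of an entry were not searched. The Mt1 window ends at base 94179088, near the annotated gene start at 94179082, so elements downstream of it were not counted. The matches of Mt1 and Mt2 are therefore not totals and do not rank these genes.

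Libraries held 18635943 to 25955943 counts. Levels are CPM, counts per 1000000 counts of the TMM-scaled library size, with their SD over the 4 libraries, and levels of different genes are compared as CPM per kb of exon. Genes were tested with edgeR's quasi-likelihood test, and a gene was called raised or lowered at a Benjamini-Hochberg adjusted p under 0.01 over the 18587 genes tested. Changes are log2 fold changes ± SE. A second fit, called the replicate block here, took the replicate number as a term. Its value is given where it changed a call between conditions whose replicates were taken as pairs. The tissue label is pancreatic islet, and beta cell markers made up most of the marker counts in all conditions (summed level of 8 markers 214385 to 237179 CPM in control islets). With IL-1β this sum was 137754 to 179437 CPM, and 6 of the 8 beta cell markers were lowered. Of the others, Iapp was raised (0.30 ± 0.07, edgeR adjusted p = 0.0019) and G6pc2 was not called. The sum of 8 macrophage markers was 14.7 to 24.3 CPM in control islets, 67.8 to 118 CPM with IL-1β, 31.6 to 67.3 CPM with both agents and 12.5 to 21.2 CPM with butyrate, and all 8 were raised by IL-1β. The sum of 6 duct markers was 372 to 399 CPM in control islets, 543 to 634 CPM with IL-1β, with 3 of the 6 raised, and 553 to 847 CPM with both agents. The sum of 3 delta cell markers was 1689 to 1989 CPM in control islets, 2389 to 2769 CPM with butyrate, 1739 to 2216 CPM with IL-1β and 2622 to 3184 CPM with both agents, with 1 of the 3, Sst, raised by butyrate without and with IL-1β. The sum of 5 alpha cell markers was 20074 to 23176 CPM in control islets and 18082 to 21657 CPM with butyrate. It was 19918.5 to 25321 CPM with IL-1β and 24626 to 27561 CPM with both agents. Butyrate lowered 2 of the 5, Irx2 and Gc, without and with IL-1β, and raised Gcg with it. The part of the duct, delta and alpha cell markers in the results was not tested. Of all markers, Amy2b (acinar) and Cd3d (T cell) had at most 3 counts in every library. In these bulk samples, fewer cells of a type and less RNA per cell cannot be told apart.

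In control islets the granule zinc transporter stood above all other members. Per kb of exon, Slc30a8 (ZnT8), which loads zinc into insulin granules, was at 364 ± 23.8 CPM per kb, the ferritin light chain gene Ftl1 at 106 ± 3.10 and the heavy chain gene Fth1 at 70.0 ± 2.22. The next in order were the transferrin receptor Tfrc at 25.2 ± 1.33 CPM per kb and Slc30a5, a zinc transporter of the secretory pathway, at 21.9 ± 0.174 CPM per kb. The libraries of these 5 genes did not overlap between neighbours. Below them, Ireb2 at 18.9 ± 1.38, Mt1 at 18.5 ± 5.03, Slc39a9 at 16.3 ± 0.483 and Slc39a6 at 16.3 ± 0.172 CPM per kb lay within the spread of the Mt1 libraries. The lowest 5 members were Slc39a4, Slc39a8, Steap3, Trf and Cp, between 0.245 and 0.156 CPM per kb, and the libraries of each overlapped with those of its neighbour. Ferritin has many near-identical processed copies in the genome, so the counts of Fth1 and Ftl1 depend on how the authors' counting treated reads that map more than once.

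**Figure D1:**
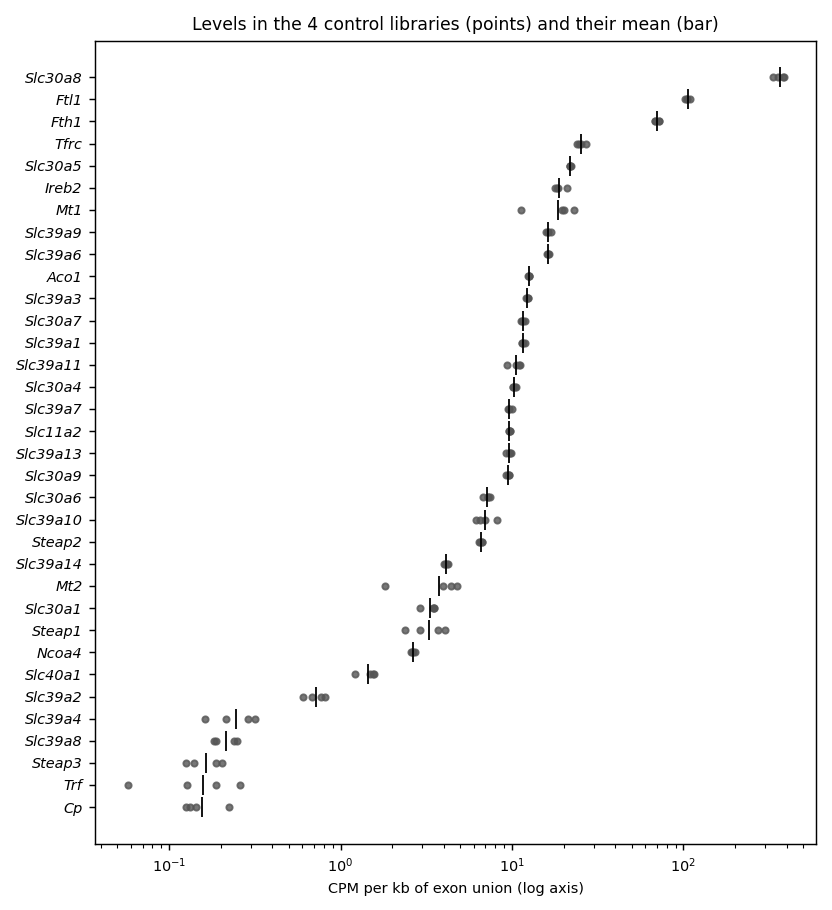
Levels of the 34 members in control islets, as CPM per kb of exon on a log axis, ordered from the highest mean. Points are the 4 control libraries and bars are their mean, and Slc30a8 at 364 CPM per kb stands above all others.

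IL-1β raised 8 members and lowered 9 of the 34, against 11.2% of all tested genes raised and 6.59% lowered. The raised members were Cp, Trf, Steap1, Slc11a2, Slc40a1 and Fth1 of the iron genes and Slc39a1 and Slc39a6 of the zinc genes, while those lowered were Slc30a1, Slc30a8, Slc39a3, Slc39a7, Slc39a13, Slc39a14, Steap2, Ftl1 and Ncoa4. Trf met the count rule only through islets with IL-1β, so its place among the raised members is not independent of the rule. Scaling by library size alone left 8 raised and 4 lowered, beside 2798 and 708 over all genes (2087 and 1224 in the main fit). Without control replicate 4 or without IL-1β replicate 4, 5 were lowered (975 and 896 over all genes). Butyrate alone raised Mt2, Tfrc and Steap3 (background 8.53%) and lowered Slc39a11 and Ireb2 (background 11.4%). In the presence of IL-1β, butyrate raised 4 members (background 8.41%), Mt2, Slc30a1, Slc39a14 and Slc11a2, and lowered 3 (background 11.1%), Ireb2, Slc39a10 and Slc39a6. Each of the 4 rises was lost when some single library was left out: none was called without replicate 3 of both agents, 1 without IL-1β replicate 3 or replicate 2 of both agents, and 2 without IL-1β replicate 1 or 4 or replicate 1 or 4 of both agents. Over all genes these fits raised 1182 to 1313, against 1563 in the main fit. The lowered members numbered 5 without butyrate replicate 1, and also 5 with the replicate block (2078 and 2857 over all genes, 2066 in the main fit). Islets with both agents differed from control islets in 7 raised members (background 15.8%) and 5 lowered ones (background 14.8%). With the replicate block 8 were lowered (3398 over all genes, 2751 in the main fit). The median change over the 34 members was −0.06 for IL-1β, −0.01 for butyrate and 0.07 for butyrate added to IL-1β, beside −0.03, 0.01 and 0.01 over all tested genes. The comparisons of IL-1β, of butyrate and of both agents with control share the control libraries. Those of IL-1β with control and of both agents with IL-1β share the IL-1β libraries, with opposite sign. A chance deviation of these libraries moves both changes, in opposite directions.

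**Figure D2:**
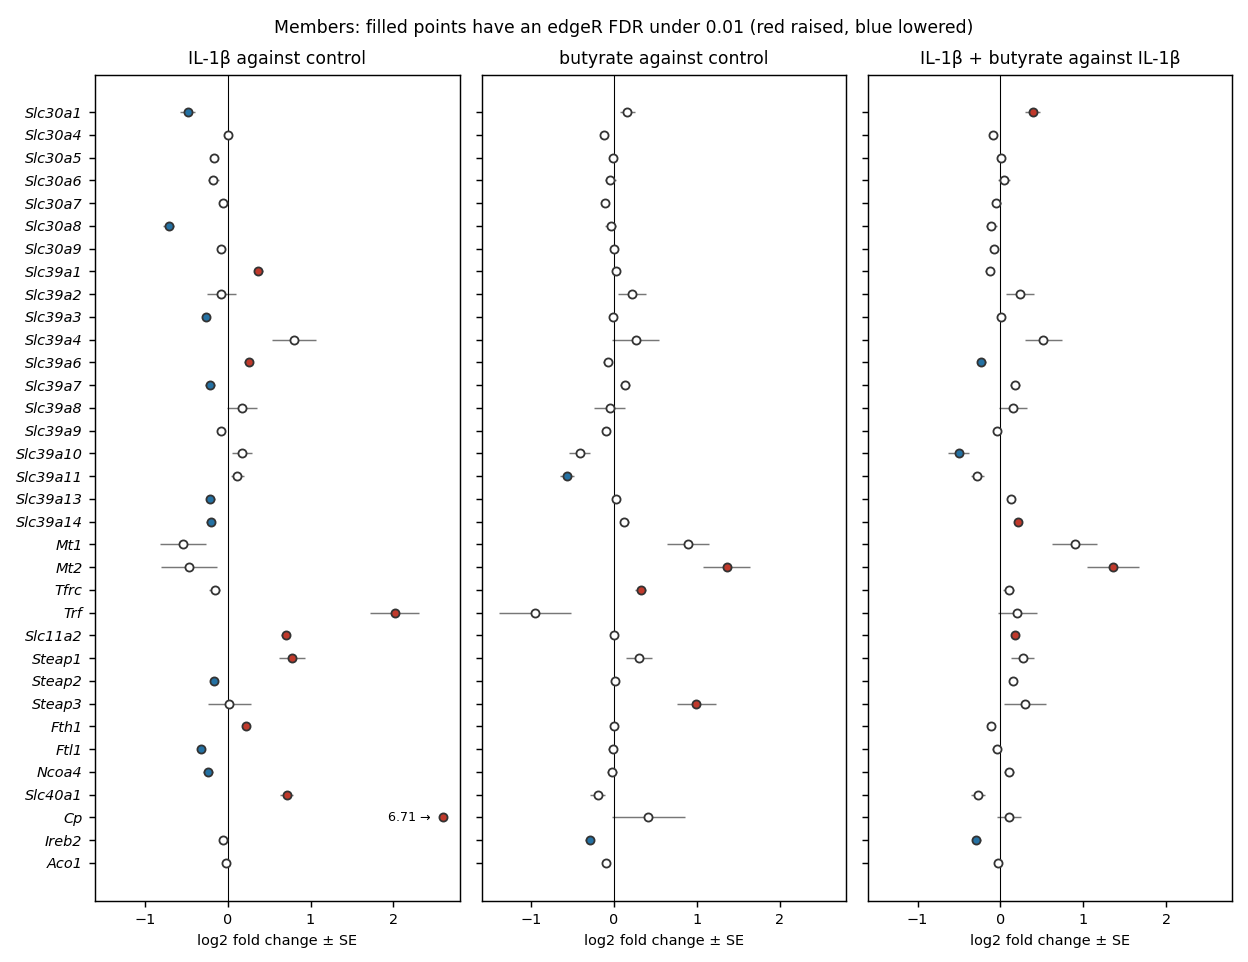
Log2 fold changes with SE of the 34 members in 3 comparisons, with filled points for an adjusted p under 0.01 (red raised, blue lowered). IL-1β gave most filled points, and the value of Cp, 6.71, is written at the edge of its panel.

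**Figure D3:**
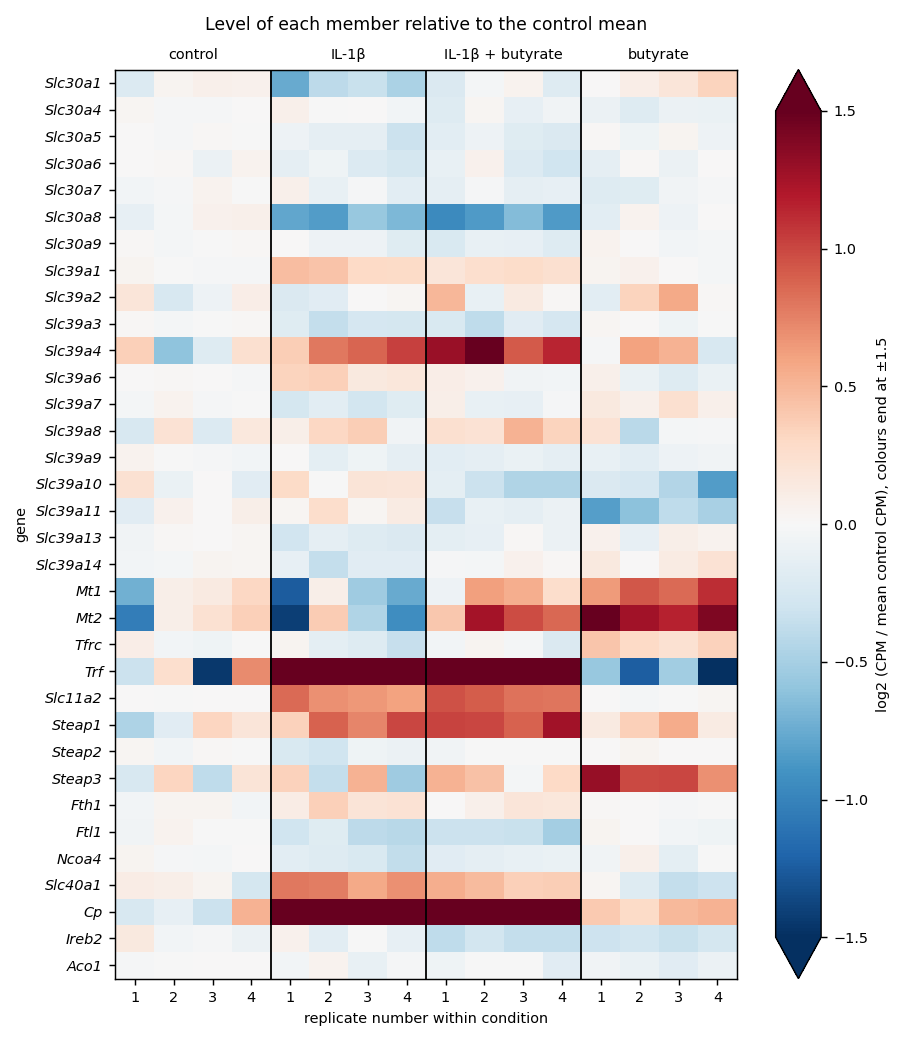
Level of each member in the 16 libraries as log2 of CPM over the mean control CPM, with the colours ending at ±1.5. Cp and Trf are at the red end of the scale in all 8 libraries with IL-1β, and Slc30a8 is blue in the same 8.

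Among the genes of iron export, the copper oxidase ceruloplasmin (Cp, ENSMUSG00000003617, chr3:19957054-20009145, plus strand), which oxidizes iron as it leaves the cell, had the largest change of all members. Its level was 1.26, 1.38, 1.19 and 2.14 CPM in control replicates 1 to 4 and 128, 171, 146 and 185 CPM with IL-1β. With both agents it was 159, 213, 125 and 183 CPM, and with butyrate 1.96, 1.82, 2.09 and 2.15 CPM. All libraries with IL-1β thus lay far above those without it, and the libraries with IL-1β alone and with both agents overlapped. The change with IL-1β was 6.71 ± 0.24 (105-fold, edgeR adjusted p = 1.4e-10). Per kb of exon, Cp went from the lowest member in control islets, 0.156 ± 0.0458 CPM per kb, to 16.5 ± 2.67 CPM per kb with IL-1β. Butyrate did not change Cp detectably, with 0.41 ± 0.44 without IL-1β (edgeR adjusted p = 0.55) and 0.11 ± 0.15 with it (adjusted p = 0.64). Heph, the membrane-bound relative of Cp, had 1 to 6 counts per library and was not tested.

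Ferroportin (Slc40a1, ENSMUSG00000025993, chr1:45908068-45926523, minus strand), the iron exporter, was at 14.1, 13.9, 13.4 and 10.9 CPM in control islets and at 22.7, 22.3, 19.4 and 21.1 CPM with IL-1β. It was at 19.0, 18.2, 16.7 and 16.9 CPM with both agents and at 13.4, 11.4, 10.2 and 10.6 CPM with butyrate. All libraries with IL-1β lay above all without it, and those with both agents lay below those with IL-1β alone. IL-1β raised it by 0.71 ± 0.08 (1.64-fold, edgeR adjusted p = 1.6e-07), and with both agents it was still above control by 0.44 ± 0.08 (adjusted p = 0.00011). The step down when butyrate was added to IL-1β, −0.27 ± 0.08, did not pass the threshold (adjusted p = 0.012), but passed with the replicate block (−0.28, adjusted p = 0.00040). Macrophages export much iron through ferroportin, and their markers had the same order of conditions, with 67.8 to 118 CPM in sum with IL-1β and 31.6 to 67.3 CPM with both agents. Their part in the change of Slc40a1 was not tested.

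For iron uptake, the divalent metal transporter Slc11a2 (ENSMUSG00000023030, chr15:100387898-100425072, minus strand) was at 61.7, 60.9, 61.4 and 61.5 CPM in control islets and at 110, 98.4, 96.4 and 93.4 CPM with IL-1β. With both agents it was at 119, 115, 107 and 107 CPM, and with butyrate at 61.6, 60.0, 61.3 and 62.6 CPM. The control and butyrate libraries were within a few CPM of each other, and all libraries with IL-1β were higher. The change with IL-1β was 0.70 ± 0.05 (1.62-fold, edgeR adjusted p = 1.3e-11), and with both agents against control 0.87 ± 0.05 (adjusted p = 7.6e-14). Butyrate added 0.17 ± 0.05 in the presence of IL-1β (adjusted p = 0.0080). This call was lost, with an adjusted p of up to 0.063, without any 1 library other than control replicate 1 or IL-1β replicate 1.

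The transferrin receptor Tfrc (ENSMUSG00000022797, chr16:32608920-32632794, plus strand) was at 167, 152, 149 and 156 CPM in control islets and at 208, 192, 183 and 198 CPM with butyrate. It was at 160, 141, 137 and 122 CPM with IL-1β and at 152, 161, 153 and 134 CPM with both agents. The butyrate libraries lay above all others, and the remaining conditions overlapped. Butyrate raised Tfrc by 0.32 ± 0.07 (1.25-fold, edgeR adjusted p = 0.00054), and in the presence of IL-1β the change was 0.10 ± 0.07 (adjusted p = 0.27). The difference between these butyrate effects was −0.22 ± 0.09 and did not pass the test (adjusted p = 0.58). IL-1β gave −0.16 ± 0.07 (adjusted p = 0.086), which passed with the replicate block (adjusted p = 0.0087).

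Transferrin (Trf, ENSMUSG00000032554, chr9:103204001-103230444, minus strand), the iron carrier of serum, met the count rule only through islets with IL-1β. Of 16 libraries, 10 had 10 or more counts, and 8 of these held IL-1β. Its call with IL-1β is thus not independent of the rule, and its change and adjusted p are given as a description. It had 9, 15, 4 and 20 counts in control islets (0.420, 0.625, 0.191 and 0.856 CPM) and 33, 67, 34 and 54 counts with IL-1β (1.71, 3.26, 1.76 and 1.95 CPM). With both agents it had 47, 57, 64 and 60 counts and with butyrate 7, 5, 7 and 4. The libraries with IL-1β lay above the others, with 1 of them, replicate 2, higher than the rest of its condition. The change with IL-1β was 2.01 ± 0.30 (4.04-fold, edgeR adjusted p = 6.4e-06), and 1.76 without that replicate (adjusted p = 3.9e-05). Gm20425, an annotated gene on the same strand with 0 to 3 counts, covers 63.5% of the exon bases of Trf.

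Of the Steap family, some of whose members reduce iron and copper for uptake, Steap1 rose with IL-1β and Steap3 with butyrate. Steap1 (ENSMUSG00000015652, chr5:5736317-5749326, minus strand) was at 3.27, 4.003, 5.64 and 5.09 CPM in control islets, 5.74, 8.32, 7.46 and 9.02 CPM with IL-1β, 9.10, 9.04, 8.28 and 10.7 CPM with both agents, and 4.92, 5.77, 6.64 and 4.90 CPM with butyrate. All IL-1β libraries were above all control libraries, although IL-1β replicate 1 only just, and IL-1β raised the gene by 0.78 ± 0.15 (1.71-fold, edgeR adjusted p = 0.00046). Steap3 (ENSMUSG00000026389, chr1:120190757-120272705, minus strand), the reductase of the transferrin cycle, was at 0.793, 1.17, 0.717 and 1.07 CPM in control islets and at 2.31, 1.87, 1.88 and 1.505 CPM with butyrate. It was at 1.19, 0.730, 1.35 and 0.650 CPM with IL-1β and at 1.34, 1.27, 0.920 and 1.16 CPM with both agents. The butyrate libraries lay above all the rest, and the other conditions overlapped. Butyrate raised Steap3 by 0.99 ± 0.23 (1.99-fold, edgeR adjusted p = 0.0019), on 15 to 46 counts per library. This call ended without control replicate 3 or without butyrate replicate 1, where the change was 0.88 to 0.89 (adjusted p = 0.0103 in both). Steap2 was lowered by IL-1β by −0.17 ± 0.05 (adjusted p = 0.0090), a call that ended without any 1 library other than IL-1β replicates 3 and 4 (adjusted p up to 0.049). Adding butyrate to IL-1β gave 0.15 for Steap2 (adjusted p = 0.018), which passed with the replicate block (adjusted p = 0.0046).

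The ferritin subunits moved apart with IL-1β. The heavy chain Fth1 (ENSMUSG00000024661, chr19:9980598-9985098, plus strand), which oxidizes iron for storage, was at 236, 249, 250.0 and 236 CPM in control islets and at 262, 310, 278 and 283 CPM with IL-1β. It was at 245, 255, 274 and 274 CPM with both agents and at 245, 244, 239 and 243 CPM with butyrate. The IL-1β libraries lay above the control libraries, and those with both agents overlapped with control and with IL-1β. The change with IL-1β was 0.22 ± 0.05 (1.17-fold, edgeR adjusted p = 0.00100). The light chain gene Ftl1 went the other way, from 137 to 147 CPM in control islets to 106 to 125 CPM with IL-1β and 99.3 to 114 CPM with both agents. It was lowered by −0.32 ± 0.05 (adjusted p = 2.2e-05) and by −0.37 ± 0.05 (adjusted p = 1.6e-06). Ncoa4, the receptor that carries ferritin to lysosomes, was lowered by IL-1β by −0.24 ± 0.06 (adjusted p = 0.0026), and by −0.18 without IL-1β replicate 4 (adjusted p = 0.028).

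Of the iron sensors, Ireb2 (IRP2) was lowered by butyrate in both settings, and Aco1 (IRP1) was called in no comparison. Ireb2 was at 168 to 198 CPM in control islets and 161 to 188 CPM with IL-1β, against 143 to 149 CPM with butyrate and 138 to 147 CPM with both agents. Libraries with butyrate lay below all those without it. The change was −0.29 ± 0.05 without IL-1β (edgeR adjusted p = 8.8e-05) and −0.29 ± 0.05 with it (adjusted p = 9.7e-05). Aco1 was between 49.9 and 58.6 CPM in all 16 libraries.

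**Figure D4:**
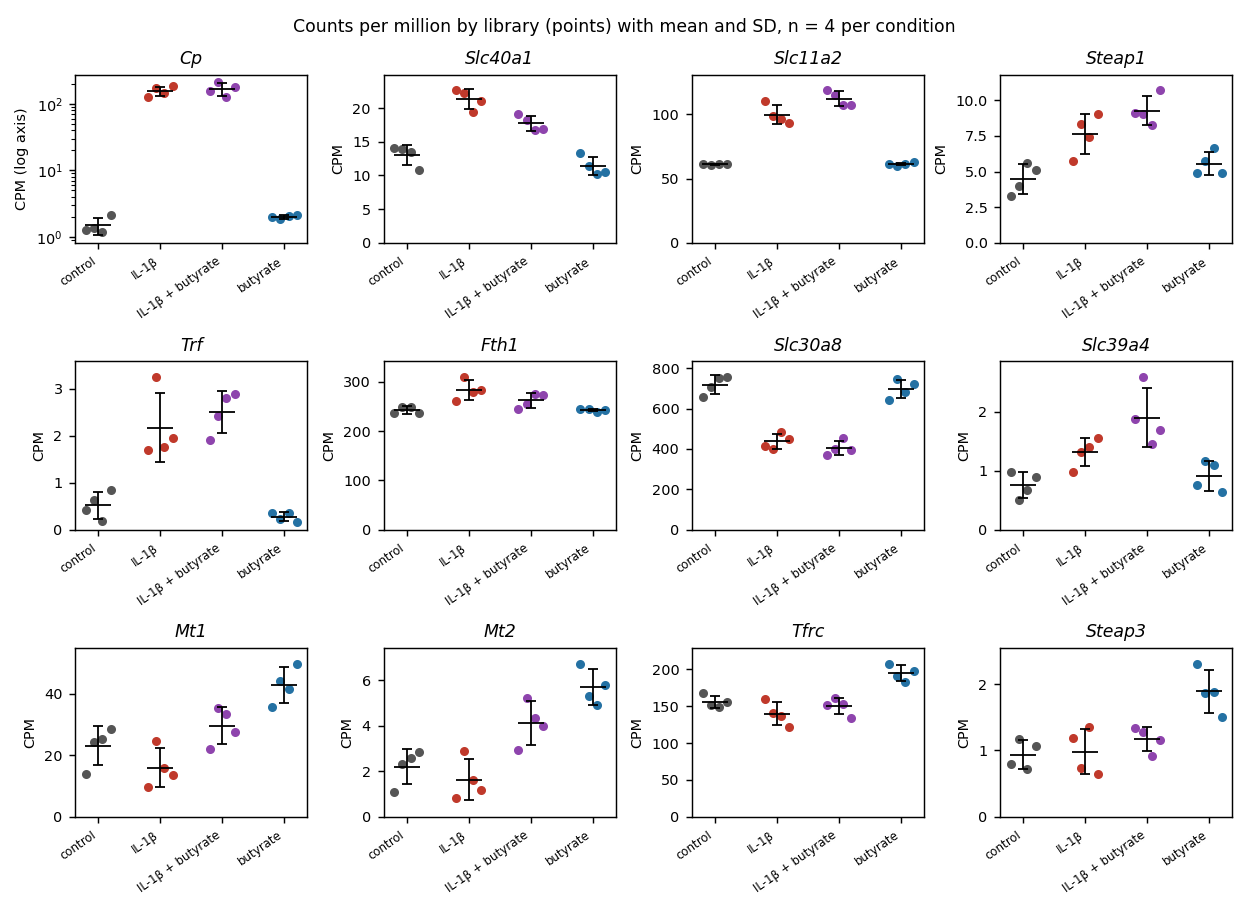
CPM of 12 members in each library (points), with the mean and SD of the 4 libraries of each condition; the axis of Cp is a log axis and the others start at 0. Cp, Slc40a1, Slc11a2 and Trf are high in the 8 libraries with IL-1β, Slc30a8 is low in them, and Tfrc and Steap3 are highest with butyrate alone.

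Of the 7 zinc exporters, IL-1β lowered Slc30a8 and Slc30a1 (background 6.59%), and none was raised (background 11.2%). Slc30a8 (ENSMUSG00000022315, chr15:52295553-52335798, plus strand) was at 658, 705, 752 and 758 CPM in control islets and at 417, 402, 485 and 450.5 CPM with IL-1β. It was at 370.2, 398, 456 and 397 CPM with both agents and at 641, 747, 683 and 720 CPM with butyrate. Every library with IL-1β lay below every library without it, and butyrate left both ranges overlapping. IL-1β lowered Slc30a8 by −0.71 ± 0.07 (edgeR adjusted p = 8.1e-09), and with both agents it was lower than control by −0.83 ± 0.07 (adjusted p = 3.8e-10). The butyrate change was −0.04 ± 0.07 without IL-1β (adjusted p = 0.69) and −0.11 ± 0.07 with it (adjusted p = 0.21). The sum of the beta cell markers was lower in the same libraries (138092 to 170288 CPM with both agents), and their part in the change was not tested.

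Slc30a1 (ZnT1), the zinc exporter of the plasma membrane, was at 15.2 to 18.5 CPM in control islets, 10.3 to 13.9 CPM with IL-1β, 15.02 to 18.2 CPM with both agents and 17.6 to 22.1 CPM with butyrate. The IL-1β libraries lay below all others. IL-1β lowered it by −0.48 ± 0.09 (edgeR adjusted p = 0.00018) and butyrate in the presence of IL-1β raised it by 0.39 ± 0.09 (adjusted p = 0.0019), so that it stood at −0.09 against control. The rise did not pass without IL-1β replicate 1 or without replicate 2 or 3 of both agents, with changes of 0.29 to 0.35 (adjusted p up to 0.017). Slc30a9 was lower with both agents than in control islets by −0.16 ± 0.04 (adjusted p = 0.0048), a call that ended without control replicate 1, 3 or 4 or without replicate 1 or 4 of both agents (adjusted p up to 0.019). Slc30a4, Slc30a5, Slc30a6 and Slc30a7 were called in no comparison. With the replicate block Slc30a5 was lowered by IL-1β (−0.17, adjusted p = 0.0010) and by both agents against control (−0.16, adjusted p = 0.0014). Among the exporters that did not meet the count rule, Slc30a2 had 2 to 3 counts in control islets, 0 to 3 with IL-1β, 5 to 16 with both agents and 3 to 12 with butyrate.

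Of the 12 zinc importers, IL-1β raised 2 (background 11.2%) and lowered 4 (background 6.59%), and 6 did not pass the test. IL-1β raised Slc39a1, an importer of the cell surface, by 0.37 ± 0.05 (edgeR adjusted p = 2.1e-06), from 27.0 to 28.1 CPM in control islets to 33.5 to 37.8 CPM. It raised Slc39a6 by 0.25 ± 0.06 (adjusted p = 0.0010), and butyrate lowered this gene in the presence of IL-1β by −0.23 ± 0.06 (adjusted p = 0.0024), or by −0.20 without IL-1β replicate 2 (adjusted p = 0.011). IL-1β lowered Slc39a3 by −0.26 ± 0.05 (adjusted p = 0.00016), from 48.3 to 49.8 CPM to 38.3 to 43.5 CPM. These calls of Slc39a1 and Slc39a3 were made under every alternative tried.

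Weaker falls with IL-1β, between −0.22 and −0.20, were called for Slc39a7, the zinc channel of the endoplasmic reticulum, for Slc39a13 and for Slc39a14, which also carries iron. The call of Slc39a7 ended without control replicate 2, 3 or 4, IL-1β replicate 1, 3 or 4, or replicate 4 of both agents (edgeR adjusted p up to 0.032). That of Slc39a13 ended without control replicate 2 or 4 or IL-1β replicate 1, 3 or 4 (adjusted p up to 0.021). That of Slc39a14 ended without control replicate 3 or 4, IL-1β replicate 2, 3 or 4, or replicate 4 of both agents (adjusted p up to 0.031). Added to IL-1β, butyrate raised Slc39a14 by 0.21 ± 0.05 (adjusted p = 0.0035), which did not pass without IL-1β replicate 2 or 3 or replicate 1, 3 or 4 of both agents (adjusted p up to 0.026). Gm20427, on the same strand and with 12 to 33 counts, covers 80.7% of the exon bases of Slc39a7, which had 399 to 652 counts.

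Butyrate lowered Slc39a11 and, in the presence of IL-1β, Slc39a10. Slc39a11 was at 31.5 to 37.6 CPM in control islets and 19.9 to 27.3 CPM with butyrate, without overlap, a change of −0.57 ± 0.08 (edgeR adjusted p = 1.5e-05). With IL-1β present its change was −0.28 (adjusted p = 0.0103), just outside the threshold, and it passed with the replicate block (adjusted p = 6.0e-05). Slc39a10, an importer of the plasma membrane, was at 42.3 to 51.9 CPM with IL-1β and 31.1 to 38.3 CPM with both agents, a change of −0.50 ± 0.12 (adjusted p = 0.0072), and −0.42 for butyrate alone (adjusted p = 0.024). The former call ended without control replicate 2 or 3, IL-1β replicate 1, 3 or 4, replicate 2, 3 or 4 of both agents or butyrate replicate 3 (adjusted p up to 0.019). Slc39a2, Slc39a8 and Slc39a9 were called in no comparison. With the replicate block, Slc39a10 (−0.34, adjusted p = 0.0029) and Slc39a9 (−0.13, adjusted p = 0.0057) were lower with both agents than in control islets. The block also called Slc39a10 lowered by butyrate alone, a comparison whose replicate numbers were not taken as pairs.

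Slc39a4 (ENSMUSG00000063354, chr15:76612383-76617384, minus strand), the zinc importer of the gut lining, was called only with both agents together against control. It was at 0.980, 0.5003, 0.669 and 0.899 CPM in control islets, 0.982, 1.31, 1.40 and 1.55 CPM with IL-1β, 1.87, 2.59, 1.45 and 1.69 CPM with both agents, and 0.753, 1.15, 1.097 and 0.645 CPM with butyrate. The libraries with both agents lay above all control libraries and overlapped with those of IL-1β. The change was 1.32 ± 0.25 (2.49-fold, edgeR adjusted p = 9.2e-05) with both agents, and 0.80 ± 0.26 with IL-1β alone (adjusted p = 0.024). The counts were 12 to 61 per library.

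Both metallothionein genes had their highest levels with butyrate. Mt2 (ENSMUSG00000031762, chr8:94172664-94173568, plus strand) was at 1.07, 2.33, 2.58 and 2.83 CPM in control islets and at 6.73, 5.29, 4.91 and 5.81 CPM with butyrate. It was at 0.827, 2.87, 1.61 and 1.15 CPM with IL-1β and at 2.92, 5.22, 4.34 and 3.997 CPM with both agents. Both pairs of conditions were apart, with the lowest library of both agents just above the highest of IL-1β. Butyrate raised Mt2 by 1.36 ± 0.29 (2.56-fold, edgeR adjusted p = 0.0018) without IL-1β and by 1.36 ± 0.31 (2.57-fold, adjusted p = 0.0036) with it. The latter call ended without IL-1β replicate 1, 3 or 4 or replicate 2 or 3 of both agents, with changes of 1.15 to 1.35 (adjusted p up to 0.018). Gm45774, annotated on the opposite strand with 9 to 25 counts, covers 73.5% of the exon bases of Mt2, which had 16 to 135 counts, and the library kit does not mark the strand. The sum of the delta cell markers was also higher in the libraries with butyrate, with 1 of the 3 markers raised, as given above. Of the 5 alpha cell markers, 2 were lowered by butyrate in both settings. The part of these markers was not tested.

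Mt1 (ENSMUSG00000031765, chr8:94179082-94180327, plus strand) was at 14, 24.4, 25.2 and 28.5 CPM in control islets and at 35.8, 43.9, 41.5 and 49.7 CPM with butyrate. It was at 9.72, 24.4, 15.9 and 13.7 CPM with IL-1β and at 21.8, 35.4, 33.5 and 27.6 CPM with both agents. The butyrate libraries were above all control libraries, and replicate 1 was the lowest in each of the 4 conditions. The butyrate change was 0.89 ± 0.25 (edgeR adjusted p = 0.019) without IL-1β and 0.89 ± 0.27 (adjusted p = 0.025) with it, neither past the threshold of 0.01. Without IL-1β replicate 2, the highest of its condition, both passed, with 0.89 (adjusted p = 0.0085) and 1.17 (adjusted p = 0.0059). With the replicate block the rise in the presence of IL-1β passed too, at 0.92 (adjusted p = 0.0030). The block also called the rise with butyrate alone, a comparison whose replicate numbers were not taken as pairs. IL-1β gave −0.54 ± 0.28 for Mt1 (adjusted p = 0.19) and −0.47 ± 0.34 for Mt2 (adjusted p = 0.36). Mt3, a metallothionein best known from brain, is no member and was lowered by IL-1β by −0.44 ± 0.11 (adjusted p = 0.0026). Butyrate raised it by 0.38 ± 0.10 (adjusted p = 0.0048) without and by 0.45 ± 0.11 (adjusted p = 0.0022) with IL-1β.

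The effect of butyrate alone and its effect under IL-1β rest on separate libraries. Over the 34 members 27 (79.4%) had the same sign in both, with r = 0.764 and rho = 0.725 across genes, against 78.8% of all tested genes with r = 0.737 and rho = 0.689, a share near that of all genes. Genes are not independent replicates, and no p is given. No member was called for the difference of the butyrate effects with edgeR (lowest adjusted p = 0.52, background 0.043% raised and 0.0538% lowered), nor with DESeq2, and 5 members had an unadjusted p under 0.05, namely Slc39a1, Slc39a11, Tfrc, Trf and Slc11a2.

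**Figure D5:**
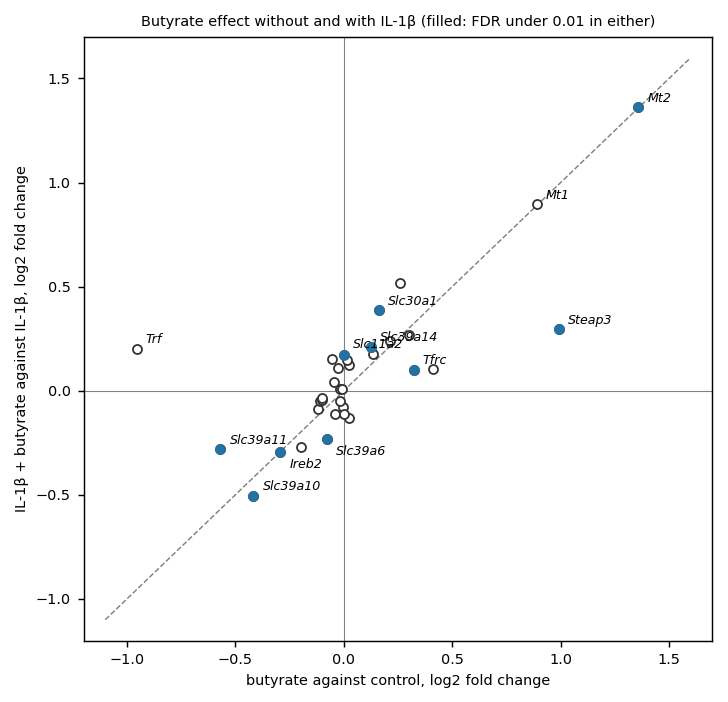
Log2 fold change of butyrate without IL-1β (x axis) against that in its presence (y axis) for the 34 members, filled where an adjusted p is under 0.01 in either. Mt2 and Mt1 lie on the dashed line of equal effects, whereas Steap3 and Trf lie furthest from it.

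Among 59 further genes of zinc and iron handling, 51 were tested, and IL-1β raised 9 and lowered 8 of them (background 11.2% and 6.59%). The lowered genes numbered 4 without IL-1β replicate 4 and 5 without control replicate 3 (896 and 911 over all genes, 1224 in the main fit). Of 17 tested genes of heme and iron scavenging, 6 were raised and none lowered. However, 4 of the 6 (Steap4, Hp, Ltf and Cybrd1) had under 10 counts in every control library. These 4 entered the test mainly through islets with IL-1β, so the count supports nothing. Their changes and adjusted p values, here and below, are likewise not independent of the filter and are given as a description. Lcn2, which binds iron-loaded bacterial siderophores, went from 0.292 to 1.67 CPM in control islets to 808 to 1762 CPM with IL-1β, a change of 10.78 ± 0.64 (edgeR adjusted p = 3.1e-08), or 11.54 without control replicate 4. With both agents it was at 1661 to 3238 CPM, a change from control of 11.62 ± 0.64, or 12.37 without that library. Steap4, the metalloreductase induced in inflammation, went from 0.0417 to 0.385 CPM to 383 to 424 CPM, a change of 10.81 ± 0.40 (adjusted p = 2.5e-10), on 1 to 9 counts in control islets. The hemoglobin-binding Hp had 0 to 4 counts in control islets, against 70 to 253 in islets given IL-1β, so its fitted change of 6.10 ± 0.57 (adjusted p = 1.4e-06) rests on a control level near 0. Lactoferrin (Ltf), at 0 to 1 counts in control islets, had 16 to 78 counts with IL-1β, at least 16.6-fold higher when the control is set at 3 counts in each library.

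Slc11a1, the metal transporter of phagosomes in macrophages, was raised by IL-1β by 1.7 ± 0.25 (edgeR adjusted p = 8.3e-06) and lowered by butyrate in its presence by −1.06 ± 0.23 (adjusted p = 0.0011), with the macrophage markers ordered as given above; their part was not tested. Ltf had −1.09 ± 0.31 for the latter step (adjusted p = 0.0088), a call that ended without any of 11 libraries, the ones that kept it being control replicates 1 and 2, IL-1β replicate 1 and replicates 3 and 4 of both agents (adjusted p up to 0.035). Cybrd1, a duodenal iron reductase, was raised by IL-1β by 1.55 ± 0.37 (adjusted p = 0.0022), a call that ended without IL-1β replicate 2 (1.43, adjusted p = 0.0101). The heme-degrading Hmox1 was at 9.29 to 10.99 CPM in control islets and 14.2 to 33.3 CPM with IL-1β, a change of 0.93 ± 0.24 that did not pass (adjusted p = 0.012). It passed without IL-1β replicate 1, at 1.07 (adjusted p = 0.0055), and without replicate 2, the highest library, at 0.59 (adjusted p = 0.00054), and with the replicate block at 0.91 (adjusted p = 0.0039). With the block, Slc11a1 was also higher with both agents than in control islets (0.64, adjusted p = 0.0099), and Hp rose when butyrate was added to IL-1β (0.97, adjusted p = 7.5e-07, against 0.011 without the block).

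Of the iron regulators, Epas1 (HIF-2α) was lowered by IL-1β by −0.80 ± 0.15 (edgeR adjusted p = 0.00011) and by butyrate by −0.64 ± 0.14 (adjusted p = 0.0013), and with both agents it was −1.07 ± 0.15 from control. Tmprss6, a protease that limits hepcidin, was higher with both agents than in control islets by 1.43 ± 0.29 (adjusted p = 0.00019), and with the replicate block IL-1β alone raised it by 0.99 (adjusted p = 0.0099, against 0.016 without the block). Hepcidin itself (Hamp) had at most 9 counts and was not tested. The iron-sensing ligase subunit Fbxl5, the transferrin receptor paralog Tfr2 and the zinc sensor Mtf1 were called in no comparison, with Mtf1 at 48.5 to 61.7 CPM over all libraries. With the replicate block, Fbxl5 was called for butyrate alone against control. Car8, a carbonic anhydrase relative without enzyme activity, was raised by IL-1β by 3.38 ± 0.14 (adjusted p = 1.7e-10), from 8.45 to 9.42 CPM to 73.9 to 108 CPM. Butyrate raised Car8 by 0.67 ± 0.16 (adjusted p = 0.0068), a call that ended without any control or butyrate library, IL-1β replicate 2 or replicate 2 of both agents (adjusted p up to 0.023). With the replicate block Car8 rose by 0.28 when butyrate was added to IL-1β (adjusted p = 1.5e-05, against 0.081 without the block).

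Butyrate alone raised 5 of the 51 and lowered 5 (background 8.53% and 11.4%), shares near those of all genes. Those raised numbered 2 without control replicate 1 or 2 or butyrate replicate 4 and 3 without control replicate 3 or butyrate replicate 3, and those lowered numbered 3 without butyrate replicate 1. Over all genes the fits named for raised genes gave 1255 to 1399 raised, against 1585 in the main fit. Without butyrate replicate 1, 1939 were lowered over all genes, against 2112. Lrp1, a receptor for heme carriers and many other ligands, rose by 0.61 ± 0.07 (edgeR adjusted p = 1.4e-06) and by 0.87 ± 0.07 in the presence of IL-1β (adjusted p = 8.2e-09). The zinc and copper enzyme Sod1 was lowered by −0.42 ± 0.07 and −0.44 ± 0.07 in these settings, and Iscu, the scaffold of iron-sulfur cluster assembly, by −0.24 ± 0.05 with butyrate alone. In the presence of IL-1β butyrate raised 4 and lowered 7 of the 51 (background 8.41% and 11.1%). With the replicate block it raised 8 (2126 over all genes, 1563 in the main fit). Without replicate 2 of both agents it raised 2 and lowered 4 (1291 and 2018 over all genes). With both agents 12 were higher and 10 lower than in control islets (background 15.8% and 14.8%). None was called for the difference of the butyrate effects with edgeR, where 5 had an unadjusted p under 0.05.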

How the data were processed

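RNA was sequenced as single-end reads from 16 libraries, 4 per condition. The authors mapped the reads to GRCm38 with STAR 2.5.3a and counted them per gene; the deposited values are raw counts, without normalization. The annotation release and the strand setting of the counting are not given in the sources used here. Columns of other samples numbered 0. GENCODE M21 gave symbols and positions for 52489 of the 52636 identifiers.

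In R 4.3.3, edgeR 4.0.16 filtered genes (filterByExpr) and applied TMM scaling, and its robust quasi-likelihood fit took the 4 conditions over all libraries; p-values were adjusted by Benjamini-Hochberg over 18587 genes. DESeq2 1.42.0 was an alternative. The other alternatives were other scalings and filters, the replicate number as a block, fits of only the groups compared, an adjusted p of 0.05 and leaving out each library. Totals were 18635943 to 25955943 counts, and reads carried no molecular identifiers, so lower bounds cover counting error only.

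The members and lists were chosen with earlier results of these data known. Values by library are given for Slc30a8, Mt1, Mt2, Tfrc, Fth1, Slc40a1 and Slc11a2 and for members called with at least a 1.5-fold change; of the further genes, named ones are Hmox1, Lcn2, Hamp, Mtf1, Tfr2, Steap4, Slc11a1, Fbxl5 and those called with at least a 2-fold change. Mt3, Lrp1, Sod1 and Iscu were named after their values were seen. Whether replicate numbers pair the libraries was checked by correlating the deviations of same-numbered libraries from their condition means. All 4 pairs were over 0.1 for control with IL-1β (r = 0.171 to 0.459), control with both agents (0.143 to 0.313) and IL-1β with both agents (0.160 to 0.343), and these were taken as paired. Control and butyrate (0.0821 to 0.341, 2 of 4 over 0.1) were not taken as paired by this cut. The cut was set here, and r was positive for every same-numbered pair of conditions (0.0763 to 0.459). The 4 independent experiments of the paper may therefore pair the butyrate libraries too. For 15 of 16 libraries, the mean r with the libraries of other conditions was highest for those of the same number. Replicates of a condition differed by more than counting error (chi-square per gene 1.72 to 13.5). The fit was tested on simulated data.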

Additional observations from a re-analysis of the deposited data

Results flagged for a closer look

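Library values that stood far from the other 3 of their condition (Dixon's test on CPM, 140 groups of 4 examined, of which chance alone gives about 7) numbered 6. Trf in IL-1β replicate 2 was at 3.26 CPM against 1.71 to 1.95 CPM, and the call of Trf with IL-1β was also made without that library. Ftl1 in replicate 4 of both agents was at 99.3 CPM against 113 to 114 CPM, and Slc30a1 in control replicate 1 was at 15.2 CPM against 18.1 to 18.5 CPM. Slc30a4 in butyrate replicate 2 was at 49.3 CPM against 52.9 to 53.3 CPM, Slc30a7 in replicate 2 of both agents at 127 CPM against 117 to 118 CPM, and Steap2 in butyrate replicate 2 at 82.3 CPM against 80.2 to 80.6 CPM.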

How the results depend on the processing

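Of 60 called results for named genes, 44 were called under every alternative that tested the gene, among them Cp, Slc11a2, Slc40a1 and Slc30a8 with IL-1β. No called result changed sign. The stricter filter, at least 50 counts in at least 4 libraries, left some genes untested, among them Slc39a4, Tmprss6, Slc11a1 and Ltf. Their calls among the 44 were therefore not tried there. With DESeq2, 8 members were lowered with both agents against control (5 with edgeR), as they were with the replicate block and at an adjusted p under 0.05. Over all genes, 2755 were lowered with DESeq2 (2751 with edgeR), 3398 with the replicate block and 3672 at an adjusted p under 0.05. Members lowered by IL-1β numbered 4 with library size only and 5 without the filter, beside 708 and 1225 over all genes (1224 in the main fit). Members lowered by butyrate in the presence of IL-1β numbered 5 without the filter, with the replicate block or in a fit of only those groups, and 6 at an adjusted p under 0.05, where 7 were raised. The counts over all genes moved under these alternatives too. Genes lowered by butyrate in the presence of IL-1β numbered 2066 in the main fit and 2857 with the replicate block. They numbered 3138 at an adjusted p under 0.05, 2328 without the filter and 1674 in the fit of only those groups. Leaving out 1 library gave 5 to 8 members lowered by IL-1β, 2 to 5 lowered and 0 to 4 raised by butyrate in its presence (0 without replicate 3 of both agents), 4 to 7 lowered and 7 to 8 raised with both agents against control, 2 to 4 raised by butyrate and 8 raised by IL-1β. The cause of these shifts was not tested. For butyrate against control, where the replicate numbers were not taken as pairs, the replicate block gave 4 members raised (Mt1 added) and 3 lowered (Slc39a10 added), and Fbxl5 was called too. Over all genes the block called 2105 raised and 2774 lowered there, against 1585 and 2112 in the main fit. In the other comparisons with control or IL-1β it changed no call of a named gene beyond those given with the results, except that Mt3, Lrp1, Sod1 and Iscu were not examined under the alternatives. Members at 4 to 67 counts (Trf, Slc39a4, Steap3) are limited by depth.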
